A study of Mus musculus with 8 samples.

Results

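Hspa8 and 9 other cytosolic heat shock chaperones of the Hsp70, Hsp110, Hsp90, small heat shock protein and J-domain families were followed in sorted Paneth cells. These 10 genes were taken by symbol from a table of 53801 genes and asked 1 question: whether the lower Hspa8 count of Mll1-deficient cells was shared by other heat shock genes. Hspa8 itself was picked because it differed between the genotypes in these libraries, so its genotype difference is given as a description. Its call, with the settings that end it, is given only as part of how it was chosen. The other 9 genes were picked for their family, with earlier results of these data known.

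Viable EpCAM+ Cd24+ cells were sorted from the small intestine of mice induced at an age of 4 to 6 weeks, at 300 cells per sample, and their polyadenylated RNA was amplified and sequenced by Smart-seq2. The 4 controls carried β-cat GOF; Mll1+/- and the 4 knockouts carried β-cat GOF; Mll1-/-, and both groups received tamoxifen (1 mg per the labels, 3 injections) and were taken 10 d after induction. All 8 animals shared the stabilised β-catenin allele that lacks exon 3 and the Lgr5-EGFP-IRES-CreERT2 driver, which acts in Lgr5+ stem cells, so that a sorted cell carried the deletion only if it descended from a recombined stem cell. The methods paragraph on sorting names the Mll1 genotypes without β-cat GOF, and the labels were followed. Control and knockout are used here as the labels give them. The whole-gene count of Kmt2a, which encodes Mll1, did not check them: controls had 32.3 ± 10.9 normalized CPM (counts per library scaled to a common size) and knockouts 31.0 ± 5.55 (SD, n = 4 each), and counts over the deleted exons alone were not analysed here. Replicate numbers are names given here and tie no libraries across genotypes, although control 4 and knockout 4 bear 1 animal number in their titles while their genotypes differ. The methods call the mice littermates, and the labels do not give the litters. The library numbers fall into 2 runs, called library sets 1 and 2, and each holds 2 controls and 2 knockouts.

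Hspa8 encodes Hsc70, the constitutive cytosolic Hsp70, which folds new and misfolded proteins and strips clathrin from coated vesicles. Hspa1a and Hspa1b encode the stress-inducible Hsp70 proteins. J-domain proteins such as Dnaja1 and Dnajb1 hand clients to Hsp70 and start its ATP hydrolysis, Hsp110 proteins such as Hspa4 and Hsph1 exchange its nucleotide, and Hsp90 takes over part of its clients. Heat shock factor 1 (Hsf1) induces many of these genes together upon proteotoxic stress, and many also have intronless copies, because abundant mRNAs are often reverse-transcribed into processed pseudogenes.

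Totals lay between 13037832 and 14380240 counts per library, and 3 counts were worth between 0.173 and 0.354 CPM. All CPM are scaled by edgeR's TMM factors. Knockout 3 stood apart from the other libraries of its genotype: its TMM factor was 0.632 against 1.22 to 1.34, its mitochondrial share was 2.04% against 5.98% to 6.16%, and 19662 genes had a count against 23340 to 25198. In the sorted cells the summed level of 11 Paneth markers was between 250000 and 709600 CPM. The highest was knockout 3, and as CPM are divided by the TMM factor, these are not shares of a library's counts. Of 8 immune markers 5 had at most 3 counts in every library and 2 passed the filter, Ptprc with up to 12.6 CPM and Cd74 with up to 16.2 CPM, and the list summed to 6.03 to 29.5 CPM in the controls and 7.07 to 23.1 CPM in the knockouts. The summed levels of 7 stromal markers were between 3.64 and 6.95 CPM.

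Much of the Hspa8 sequence occurs more than once in the genome. The gene lies on the + strand of chr9:40800984-40810087 (mm10), and its coding transcript of 2394 bases in 9 exons had 12 near-identical copies among annotated transcripts (at least 90% identity over at least 300 bases), of which 11 were processed pseudogenes. Only 25.2% of its 50-base words occurred in no other annotated gene. The unique words were spread unevenly: 9.3% of the words within the coding sequence were unique, against 100% of those upstream of it. The counting kept uniquely mapped reads, so this bears on every Hspa8 value given here. The 90 coding bases in which 3 of the closest copies together differ most from Hspa8 (coding bases 380 to 469, 10 differences in total) are shown to make the problem visible, with differences from Hspa8 in capitals.
Hspa8: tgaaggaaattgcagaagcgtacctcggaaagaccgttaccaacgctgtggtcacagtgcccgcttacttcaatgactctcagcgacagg
Gm15459: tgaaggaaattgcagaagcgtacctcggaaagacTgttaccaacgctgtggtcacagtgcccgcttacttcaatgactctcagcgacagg
Gm8355: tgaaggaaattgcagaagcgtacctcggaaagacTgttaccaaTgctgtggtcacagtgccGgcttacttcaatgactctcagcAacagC
Gm6210: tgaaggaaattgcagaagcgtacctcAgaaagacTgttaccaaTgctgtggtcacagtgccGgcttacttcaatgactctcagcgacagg

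Even in this most divergent stretch the copies carried 1, 5 and 4 differences. Over the 1938 coding bases of Hspa8, Gm15459 (− strand, chr5:5781615-5783555) differed at 5 bases and held a run of 672 bases without a difference. Gm8355 (− strand, chr10:14745362-14747302) differed at 25 bases, with a longest identical run of 359, and Gm6210 (− strand, chr6:75296118-75298059) at 28, with a longest run of 290.

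Counts at the Hspa8 locus were lower in the knockouts. They stood at 70.4, 49.3, 57.3 and 45.7 CPM in controls 1 to 4 and at 14.4, 15.0, 28.2 and 18.5 CPM in knockouts 1 to 4. Every knockout lay below every control, and knockout 3 was the highest of its genotype. The means were 55.7 ± 10.95 and 19.01 ± 6.36 CPM (SD, n = 4 each), and the log2 fold change was −1.56 (SE 0.24). Of 13439 genes tested 0.186% were called in either direction and 0.0298% were called lower (edgeR's quasi-likelihood test with Benjamini-Hochberg adjustment, a gene being called where its adjusted p was 0.05 or less and its log2 fold change 0.5 or more in either direction), and in 1.93% every knockout was below every control. As the gene was chosen by this contrast, nothing is read from its call. Just inside the cutoff on the lower side were Jaml, Hspa8 and Onecut2 (log2 fold changes −4.94, −1.56 and −1.27), and just outside it were Neurod1 (−2.27) and Phgr1 (−1.06). The choice depended on the libraries: the gene stayed past the cutoff without knockout 3 (−1.81) and fell outside it when any other library was left out, at values between −1.64 and −1.42. In bulk samples, fewer cells of a type and less RNA per cell cannot be told apart.

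Counts on the copies were not lower in the knockouts. Summed over the 12 copies they were 50.9, 42.6, 41.7 and 38.3 CPM in the controls and 43.2, 51.3, 45.6 and 43.4 CPM in the knockouts, so that the genotypes overlapped. The means were 43.4 ± 5.33 and 45.9 ± 3.76 CPM (SD, n = 4 each). Copies therefore made up 41.9% to 46.3% of gene plus copies in the controls and 61.8% to 77.3% in the knockouts. Gene plus copies came to 99.0 ± 16.0 CPM in the controls and 64.9 ± 6.92 CPM in the knockouts, with every knockout again below every control, and the log2 fold change of this sum was −0.61 (SE 0.17) and was not called.

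**Figure D1:**
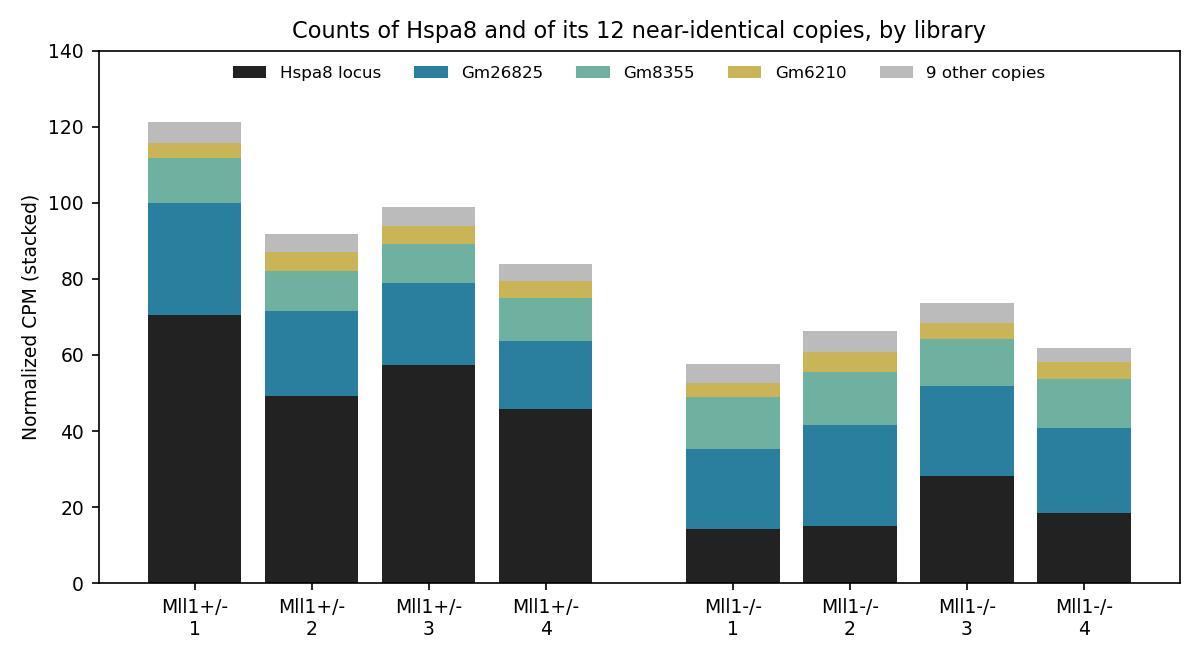
Stacked normalized CPM (y axis) of the Hspa8 locus, of its 3 copies with the most counts and of the other 9 copies together, in each of 8 libraries (x axis). The locus lies between 45.7 and 70.4 CPM in the controls and between 14.4 and 28.2 CPM in the knockouts, while the copies together stay between 38.3 and 51.3 CPM.

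The copy with the most counts was Gm26825, annotated as a lincRNA on the + strand of chr5:5781530-5783636 and antisense to the Hspa8 sequence. It had 29.6, 22.2, 21.6 and 18.05 CPM in the controls and 20.97, 26.4, 23.6 and 22.4 CPM in the knockouts. Its log2 fold change was 0.03 (95% interval −0.34 to 0.40, adjusted p = 0.9949, edgeR). Of its 2026 exon bases 1860 are shared with Gm15459 on the other strand, and Gm15459 was listed at 0 in all 8 libraries, although Gm26825 had between 200 and 471 counts. Whether the counting used strand is not given in the sources used here. The 166 exon bases that Gm26825 does not share with Gm15459 were not counted apart. How much of its count, and so of the copy sum, lay on Hspa8-like sequence is therefore not known.

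Gm8355 had 11.8, 10.7, 10.3 and 11.2 CPM in the controls and 13.6, 13.9, 12.6 and 12.8 CPM in the knockouts. The genotypes did not overlap, with the knockouts higher (exact 2-sided permutation test, p = 0.02857, the smallest 4 against 4 samples allow), and the log2 fold change of 0.27 (95% interval −0.08 to 0.62) did not pass across all genes (adjusted p = 0.8822, edgeR). Across all genes, 4.52% had genotypes that did not overlap in one direction or the other. Gm6210 had 4.50 ± 0.437 and 4.46 ± 0.744 CPM (SD, n = 4 each; log2 fold change −0.01, adjusted p = 0.9979, edgeR). Whether reads on the copies came from Hspa8 mRNA or from the copies themselves was not tested.

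The share of copies in the Hspa8 total follows from the locus count by which the gene was chosen, and shares of other chaperones are given as a description only. Hsp90aa1, of whose 50-base words 41.5% are unique, had 4 copies, chief among them Gm12346, and together they held 39.8% to 48.8% of gene plus copies in the controls and 42.4% to 46.4% in the knockouts. The copies of Dnaja1, with 71.2% unique words, held 28.3% to 40.5% and 26.3% to 31.5%. For Hsp90ab1, with 95.5% unique words, the share was 4.61% ± 0.657 for controls and 4.72% ± 0.247 for knockouts (SD, n = 4 each). The genotypes overlapped for all 3 genes.

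**Figure D2:**
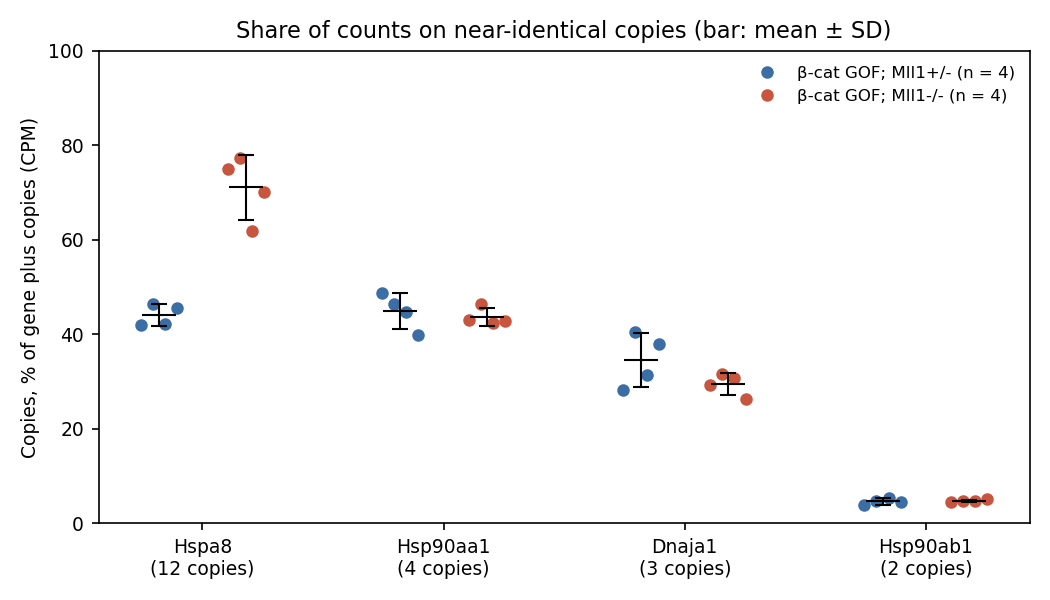
Share of counts on near-identical copies, in percent of gene plus copies (y axis), for Hspa8, Hsp90aa1, Dnaja1 and Hsp90ab1 (x axis); points are libraries, bars the mean ± SD of 4. The genotypes separate for Hspa8, at 41.9% to 46.3% against 61.8% to 77.3%, and overlap for Hsp90aa1, Dnaja1 and Hsp90ab1.

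The other cytosolic chaperones were mostly slightly higher in the knockouts in their means. Of the other 9 genes 8 passed the filter on low counts, 7 of these had a positive and 1 a negative log2 fold change, and none was called (edgeR, 0 of 8; also 0 by DESeq2's Wald test and by limma-voom, and 0 at an unadjusted p under 0.05, where the share over all genes was 6.88%). In none of the 8 did the genotypes separate, where 4.52% of all tested genes did. With 0.186% of all genes called, 0 of 8 is also what the background gives. Without knockout 3, which stood apart, 5 chaperones including Hspa8 were lower, none of the others was called, and the median with Hspa8 was −0.02. In the fit of all libraries the median log2 fold change of the 8 other chaperones was 0.15. It was 0.14 with Hspa8 and 0.01 over all tested genes, of which 49.1% were below 0. The intervals below show what size of difference each gene leaves possible.

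**Figure D3:**
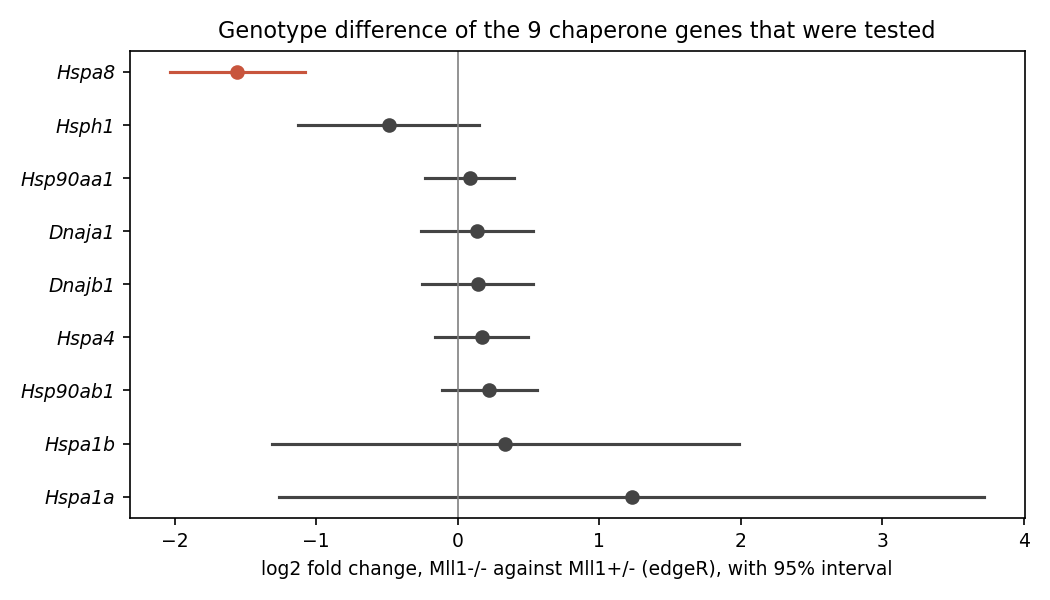
Log2 fold change of knockouts against controls (x axis) with its 95% interval for the 9 tested chaperones (y axis). Hspa8, in red, lies at −1.56, and the intervals of the other 8 include 0, those of Hspa1a and Hspa1b being the widest.

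Among the Hsp70 partners, Hspa4, an Hsp110-type nucleotide exchange factor, had 46.7, 37.2, 41.9 and 39.5 CPM in the controls and 53.2, 52.5, 41.1 and 38.9 CPM in the knockouts. Both knockouts of set 1 lay above every control, and the other 2 lay among them. The log2 fold change was 0.17 (95% interval −0.16 to 0.50, adjusted p = 0.941, edgeR). Hsph1, the stress-inducible Hsp110, was the only other chaperone with a lower mean in the knockouts. It had 31.2, 18.9, 19.9 and 10.7 CPM in the controls and 15.4, 20.6, 12.5 and 9.06 CPM in the knockouts. Knockout 2 exceeded 3 of the 4 controls. Its log2 fold change was −0.49 (SE 0.33, 95% interval −1.13 to 0.15, adjusted p = 0.8819, edgeR), and all of its 50-base words and those of Hspa4 were unique.

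The J-domain genes lay close together in both genotypes. Dnaja1 had 22.5, 17.2, 23.0 and 19 CPM in the controls and 27.9, 22.7, 16.1 and 22.8 CPM in the knockouts (log2 fold change 0.14, 95% interval −0.26 to 0.53, adjusted p = 0.9704, edgeR). Dnajb1, the classical heat-inducible J-domain gene, had 13.9, 11.9, 15.5 and 16.2 CPM in the controls and 19.01, 16.5, 15.1 and 12.7 CPM in the knockouts (log2 fold change 0.14, 95% interval −0.25 to 0.53, adjusted p = 0.9696, edgeR). For both genes the highest library was knockout 1, and the range of the knockouts enclosed that of the controls for Dnaja1. Dnaja1 shares 7.0% of its exon bases with Smu1 on the other strand.

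Hsp90ab1, the constitutive Hsp90 and the most abundant of the 10 genes, had 317.9, 261.8, 269.9 and 266.5 CPM in the controls and 303.0, 331.8, 299.6 and 368.2 CPM in the knockouts. Only control 1 reached into the range of the knockouts. The log2 fold change was 0.22 (95% interval −0.11 to 0.56, adjusted p = 0.9059, edgeR; exact 2-sided permutation test, p = 0.08571). Hsp90aa1, the inducible form, had 57.6, 46.7, 57.2 and 55.7 CPM in the controls and 51.8, 57.8, 69.3 and 51.7 CPM in the knockouts. The genotypes overlapped, with knockout 3 the highest. The log2 fold change was 0.08 (95% interval −0.23 to 0.40, adjusted p = 0.9819, edgeR), and −0.02 without knockout 3.

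**Figure D4:**
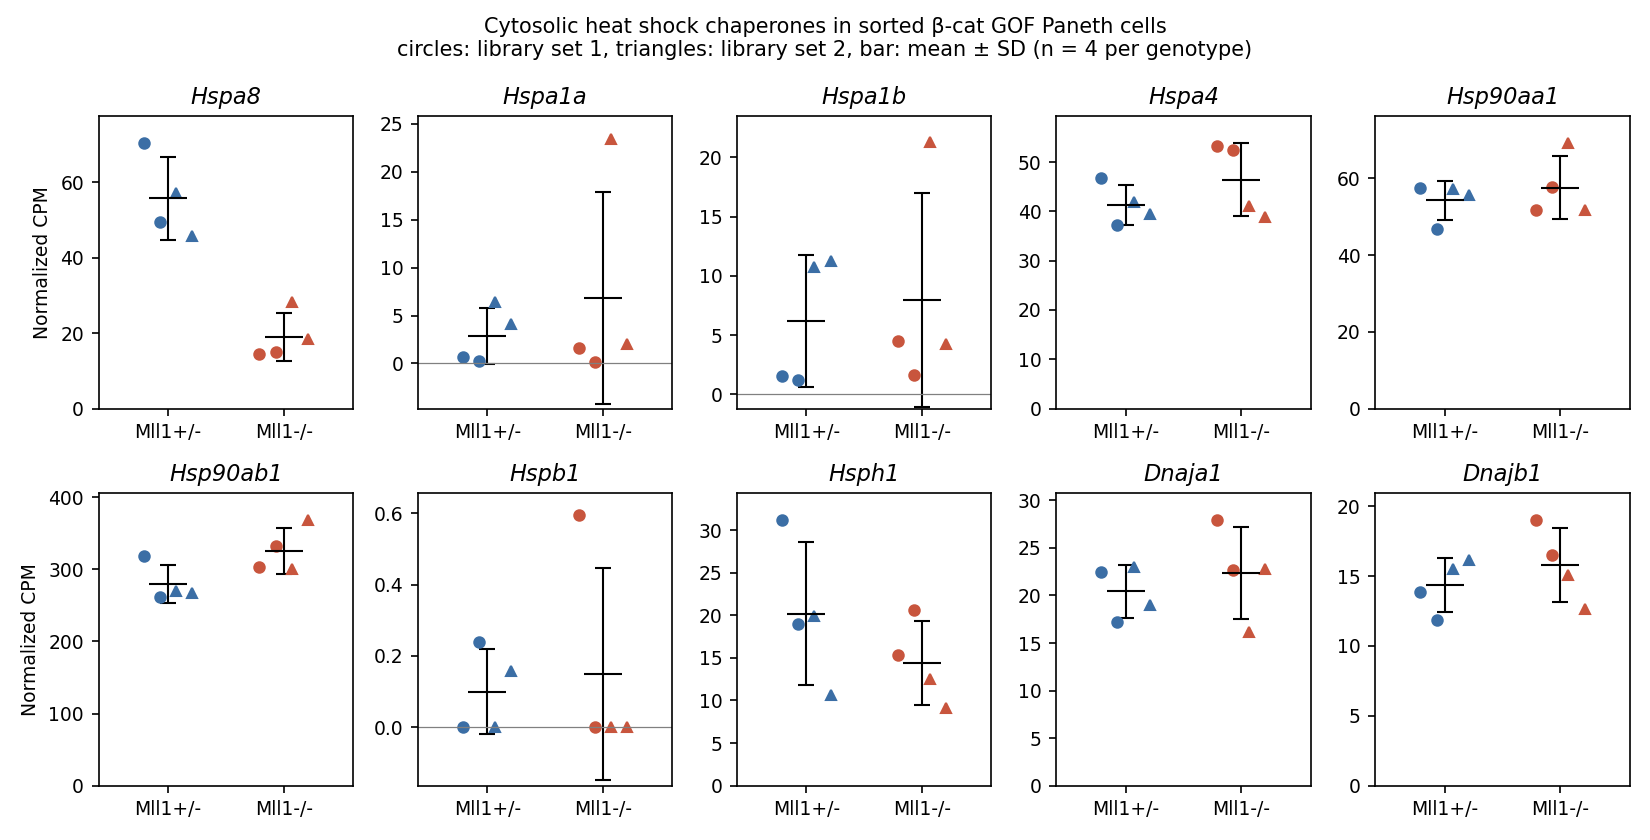
Normalized CPM (y axis, a separate scale in each panel) of the 10 chaperones in the 4 controls and 4 knockouts (x axis); circles are library set 1, triangles set 2, and bars the mean ± SD, which reaches below 0 where 1 library dominates. Hspa8 separates the genotypes, Hspa1a separates the library sets, and the knockout 3 values of Hspa1a and Hspa1b stand at 23.5 and 21.3 CPM.

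The stress-inducible Hsp70 genes varied far more between libraries than the rest. Hspa1a had 0.629, 0.239, 6.39 and 4.12 CPM in the controls and 1.61, 0.173, 23.5 and 2.07 CPM in the knockouts. Hspa1b had 1.51, 1.19, 10.7 and 11.2 CPM in the controls and 4.47, 1.67, 21.3 and 4.26 CPM in the knockouts. For both genes knockout 3 was the highest library. Between genotypes the log2 fold change was 1.23 for Hspa1a (95% interval −1.26 to 3.72, adjusted p = 0.9431, edgeR) and 0.34 for Hspa1b (−1.31 to 1.99, adjusted p = 0.9864, edgeR). Without knockout 3 these values were −1.13 and −0.82, so neither gene had a direction that held.

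The library sets, by contrast, did not overlap in Hspa1a, which lay between 0.173 and 1.61 CPM in set 1 and between 2.07 and 23.5 CPM in set 2. Over all tested genes 6.24% had library sets that did not overlap, and of the 8 tested chaperones other than Hspa8 it was Hspa1a alone. Hspa1b was between 1.19 and 4.47 CPM in set 1 and between 4.26 and 21.3 CPM in set 2, overlapping by 1 knockout of each set. The 2 genes are 99.2% identical over 2201 aligned bases, and 33.7% and 37.7% of their 50-base words are unique. Their sum was between 1.43 and 6.08 CPM in set 1 and between 6.33 and 44.8 CPM in set 2. The sets were read from the library numbers alone, and the labels do not say what they stand for.

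Hspb1, which encodes the small heat shock protein Hsp25, did not pass the filter. It had counts of 0, 3, 0 and 2 in the controls and of 10, 0, 0 and 0 in the knockouts. A level was thus not detectable in most libraries, and no fold is given.

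Per kilobase of exon, the controls ranked the 10 genes from Hsp90ab1 (93.0 ± 8.71 CPM per kb) over Hsp90aa1 (13.8 ± 1.30), Hspa8 (12.9 ± 2.55), Hspa4 (7.47 ± 0.738), Dnajb1 (4.48 ± 0.596), Hsph1 (2.78 ± 1.16), Dnaja1 (2.37 ± 0.326), Hspa1b (2.20 ± 1.99) and Hspa1a (0.959 ± 0.990) to Hspb1 (0.0963 ± 0.116; SD, n = 4 each). Hspa8 and Hsp90aa1 did not differ beyond their spread in the controls, and the ranges of Hsph1, Dnaja1, Hspa1b and Hspa1a overlapped each other. In the knockouts Hspa8 had 4.42 ± 1.48 CPM per kb (SD, n = 4), next to Dnajb1 at 4.93 ± 0.8285, and ranked 5 in place of 3. Counts on the copies of Hspa8 and Hsp90aa1 are not in these levels.

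Of the 10 genes 7 had a promoter window in the RefSeq table used here (GRCm38.p6, 250 bases before to 50 after the start). Hspa8, Hsp90aa1 and Hsp90ab1 were not in it. The heat shock element to which Hsf1 binds is built of alternating inverted 5-base units, and pairs of facing units, GAANNTTC or TTCNNGAA, were searched. Each reads the same on both strands, and overlapping matches were counted. Of the 7 genes 5 had such a pair, namely Dnaja1, Hspb1, Hsph1, Hspa1a and Hspa1b, and Dnajb1 and Hspa4 had none in their windows. Over all 27025 genes with a window the share was 17.0%. Hsph1 had 3 alternating units in a row, which 0.66% of all genes had. The 250 bases upstream of Hspa1a and Hspa1b, whose levels varied between libraries together, and of Hspb1, which had nearly no counts, are shown with the matches in capitals, 5′ to 3′ on the gene's strand.
Hspa1a (− strand, chr17:34972157-34972406): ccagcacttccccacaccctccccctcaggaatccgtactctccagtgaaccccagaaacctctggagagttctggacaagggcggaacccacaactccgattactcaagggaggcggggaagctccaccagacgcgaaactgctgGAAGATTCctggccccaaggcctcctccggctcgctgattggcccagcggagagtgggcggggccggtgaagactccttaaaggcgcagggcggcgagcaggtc
Hspa1b (− strand, chr17:34959239-34959488): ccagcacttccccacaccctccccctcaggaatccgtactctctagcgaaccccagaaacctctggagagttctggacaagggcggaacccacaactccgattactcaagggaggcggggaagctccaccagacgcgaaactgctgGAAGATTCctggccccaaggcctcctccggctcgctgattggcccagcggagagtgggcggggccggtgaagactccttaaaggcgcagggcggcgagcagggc
Hspb1 (+ strand, chr5:135887669-135887918): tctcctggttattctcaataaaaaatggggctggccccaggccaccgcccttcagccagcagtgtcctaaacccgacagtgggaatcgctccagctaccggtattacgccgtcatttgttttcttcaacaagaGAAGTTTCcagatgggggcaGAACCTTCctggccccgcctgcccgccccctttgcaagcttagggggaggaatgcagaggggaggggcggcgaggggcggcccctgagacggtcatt

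The Hspa1a and Hspa1b stretches differ at 3 of 250 bases, and the match starts 104 bases before the start of each gene. In Hspb1 the 2 matches start 117 and 97 bases before it. A match is a description of the letters and not a bound site.

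The wider chaperone system was followed in lists of cochaperones, other chaperones and their regulators. No gene of these lists, or of the immediate early genes, was called by edgeR, DESeq2's Wald test or limma-voom, and with no filter on low counts edgeR called Atf3, Cryab and Nr4a1. At an unadjusted p under 0.05 were Stip1, Hsf2, 3 chaperonin genes and 5 immediate early genes. Over all tested genes 6.88% were at such a p, 0.186% were called by edgeR, and 49.1% had a log2 fold change below 0. DESeq2's Wald test called 138 genes of the whole table and limma-voom 101. Of 5 tested other Hsp70 and Hsp110 genes 4 were higher and 1 lower in the mean (median log2 fold change 0.18). Hspa4l, a further Hsp110 gene, had 25.9 ± 6.46 and 19.6 ± 6.19 CPM, Hspa13 16.1 ± 4.95 and 18.4 ± 7.40, and Hyou1, the Hsp110 of the endoplasmic reticulum, 13.5 ± 3.03 and 13.8 ± 2.46 (controls and knockouts, SD, n = 4 each).

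Of 12 other J-domain genes 3 were higher and 9 lower (median −0.16). The most abundant was Dnajc3, a J-domain protein of the endoplasmic reticulum, with 124.9 ± 29.9 and 112.2 ± 26.5 CPM. Dnaja2 had 41.5 ± 4.45 and 39.5 ± 10.3 CPM and Dnajc8 30.7 ± 6.90 and 29.8 ± 3.18 CPM (SD, n = 4 each). Of 10 nucleotide exchange factors and Hsp70 cochaperones 6 were higher and 4 lower (median 0.07). Bag1, which releases nucleotide from Hsc70, had 64.5 ± 2.94 and 60.2 ± 11.3 CPM, and St13, which binds Hsc70, had 46.7 ± 5.31 and 47.1 ± 4.36 CPM. Stip1, which links Hsp70 to Hsp90, had 10.6 ± 1.76 CPM in the controls and 15.1 ± 2.35 CPM in the knockouts (log2 fold change 0.51, SE 0.21, adjusted p = 0.6642, edgeR).

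Of 11 Hsp90 cochaperones 7 were higher and 4 lower (median 0.12), with Ptges3 (p23) at 40.7 ± 6.06 and 35.1 ± 17.0 CPM, Fkbp4 at 34.2 ± 6.85 and 34.3 ± 3.85 CPM, and Sugt1 at 19.9 ± 3.28 and 25.2 ± 3.33 CPM (controls and knockouts, SD, n = 4 each). Of 3 tested small heat shock protein genes 2 were higher and 1 lower (median 0.09). Hspb11 had 6.97 ± 0.940 and 6.90 ± 1.74 CPM, Hspb8 had 5.47 ± 0.914 and 5.87 ± 3.62 CPM, and Hspb6 had 1.12 ± 0.900 and 2.30 ± 1.46 CPM. The 6 chaperones of the endoplasmic reticulum and mitochondria had 2 higher and 4 lower (median −0.06). Among them were Hspa5 (BiP), the Hsp70 of the endoplasmic reticulum, at 291.8 ± 107.0 and 294.4 ± 95.3 CPM, Hsp90b1 at 176.2 ± 24.4 and 172.9 ± 27.1 CPM, and Hspe1, the mitochondrial Hsp10, at 58.9 ± 7.32 and 50.9 ± 13.4 CPM.

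The cytosolic chaperonin and prefoldin genes, which fold actin and tubulin, had 13 of 14 means higher in the knockouts (median 0.14). Of all tested genes 49.1% were lower. Of the 14 genes 3 had an unadjusted p under 0.05, against 6.88% of all tested genes. Summed, the 14 genes stood at 486.3 to 570.6 CPM in the controls and at 573.7 to 667.7 CPM in the knockouts. Tcp1 had 34.3, 34.9, 32.2 and 37.2 CPM in the controls and 49.0, 52.4, 45.6 and 45.2 CPM in the knockouts, without overlap (log2 fold change 0.47, SE 0.15, adjusted p = 0.4422, edgeR). Cct7 had 44.5 ± 3.94 and 57.1 ± 4.33 CPM (adjusted p = 0.6676, edgeR) and Cct3 a log2 fold change of 0.40 (adjusted p = 0.6696, edgeR), and these 3 genes were singled out after their values were seen. The 3 most abundant were Cct2 (61.3 ± 3.85 and 67.2 ± 11.7 CPM), Cct5 (57.2 ± 4.59 and 68.2 ± 10.5 CPM) and Cct8 (56.6 ± 8.24 and 62.1 ± 9.94 CPM; SD, n = 4 each).

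**Figure D5:**
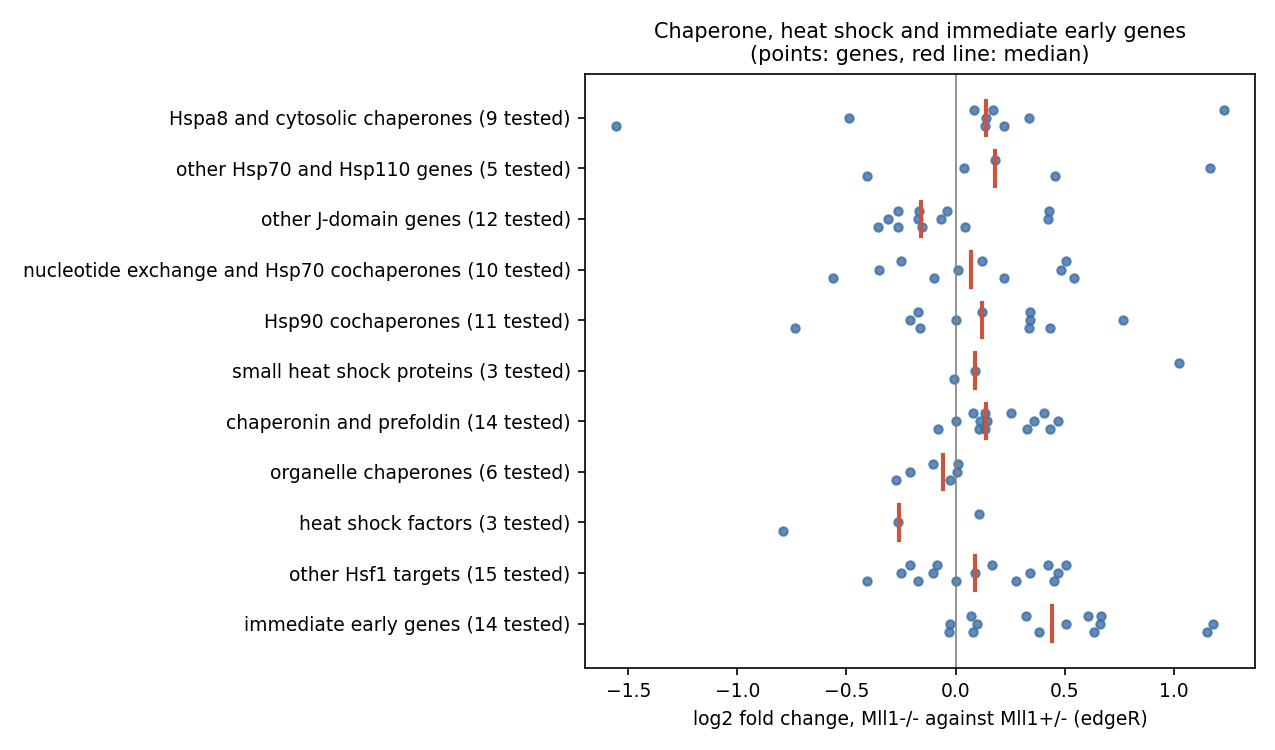
Log2 fold change of knockouts against controls (x axis) of the tested genes of each list (y axis); points are genes and red lines medians. Hspa8, chosen for its difference, is the point at −1.56, and list medians lie between −0.26 and 0.44.

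Of 3 tested genes of heat shock factors and their binding protein 1 was higher and 2 lower (median −0.26), and both factors, Hsf1 and Hsf2, were the lower ones. Hsf1 had 3.96 ± 0.321 CPM in the controls and 3.28 ± 0.722 CPM in the knockouts, and Hsbp1, which binds heat shock factors, was the higher one with 42.8 ± 5.38 and 46.1 ± 4.71 CPM. Hsf2 had 5.41, 8.83, 7.56 and 6.49 CPM in the controls and 5.84, 4.20, 2.83 and 3.35 CPM in the knockouts, where knockout 1 overlapped the controls (log2 fold change −0.79, SE 0.30, adjusted p = 0.6055, edgeR). Of 15 tested other Hsf1 targets 9 were higher and 6 lower (median 0.09). Ubb, which encodes ubiquitin, had 63.7 ± 27.4 and 87.0 ± 22.3 CPM (SD, n = 4 each). Several genes stand in more than one of these lists, Tcp1, Stip1, Fkbp4, Hspa4l, Hspb8 and Hspe1 among them.

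Immediate early genes, which rise within minutes of tissue handling, were followed beside the heat shock genes because the cells had been dissociated and sorted. Of 14 genes 12 were higher in the knockouts and 2 lower (median 0.44), where 49.1% of all tested genes were lower. Of the 14, 5 had an unadjusted p under 0.05, against 6.88% of all tested genes, and none was called. Their summed level was 402.6 to 732.5 CPM in the controls and 649.6 to 988.8 CPM in the knockouts, with knockout 3 the highest, as it was for Hspa1a and Hspa1b. Fos had 175.7 ± 48.0 and 187.9 ± 51.5 CPM, Egr1 98.9 ± 30.6 and 156.7 ± 72.1 CPM, and Jun 58.6 ± 12.8 and 73.3 ± 4.17 CPM (SD, n = 4 each). The part of dissociation in these values was not tested.

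Markers of other cell types had lower means in the knockouts beside Hspa8, although none was called (edgeR). All 6 enteroendocrine markers were lower in the mean in the knockouts (median −1.70), where 49.1% of all tested genes were lower. Of the 6, 5 had an unadjusted p under 0.05, against 6.88% of all tested genes. The summed level of the 6 was 180.8 to 474.7 CPM in the controls and 44.9 to 179.2 CPM in the knockouts. All 5 tuft markers were lower as well (median −0.94), at 148.4 to 398.5 and 75.7 to 261.6 CPM, and the summed level of 6 stem markers was 705.3 to 1524 CPM in the controls and 273.6 to 955.1 CPM in the knockouts (2 genes higher and 4 lower, median −0.44). Of the stem markers, Olfm4 made up most of this sum, at 876.3 ± 305.8 and 406.1 ± 241.5 CPM, while Lgr5 had 47.5 ± 3.73 and 48.9 ± 7.98 CPM and Axin2 20.3 ± 7.43 and 37.9 ± 13.6 CPM (SD, n = 4 each), and these 3 were picked after their values were seen. Of 5 tested enterocyte markers 2 were higher and 3 lower (median −0.72). Of 8 goblet markers 5 were higher and 3 lower (median 0.13), and of 11 Paneth markers 4 were higher and 7 lower (median −0.09). An unadjusted p under 0.05 was also found for 4 stem markers (3 lower, 1 higher) and 1 Paneth marker (higher). The same held for 2 enterocyte markers, 2 goblet markers and 1 tuft marker, all lower. The part of these cells in the lower Hspa8 count was not tested.

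The 5 genes whose levels followed Hspa8 most closely over the 8 libraries, among 4339 genes whose mean reached 10 CPM, were Onecut2 (Pearson's r = 0.958), the inflammatory caspase gene Casp4 (0.942), Mocs2 (0.923), Clint1 (0.910) and the noncoding snoRNA host gene Snhg18 (0.905). These values hold the genotype difference and the shared library scale. With each library's genotype mean taken off they were 0.689, 0.720, 0.561, 0.438 and 0.691. The 5 genes were picked by the first r, which holds these deviations too, so the second values are a description only. Onecut2, a transcription factor gene, had 50.1, 50.8, 37.8 and 41.6 CPM in the controls and 18.3, 13.9, 25.1 and 17.6 CPM in the knockouts, where as in Hspa8 knockout 3 was the highest of its genotype. Clint1, which encodes a clathrin-interacting protein, had 49.1 ± 3.40 and 38.7 ± 2.28 CPM (SD, n = 4 each; log2 fold change −0.35, adjusted p = 0.6696, edgeR). Of the chaperones, Hsph1 had the highest r with the genotype difference included (0.43) but 0.13 without it, where Hsp90aa1 had 0.72 (0.02 with it) and Hspa1a 0.54 (0.09 with it).

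No neighbour of Hspa8 was called. Within 0.5 Mb lay 32 annotated genes, of which 5 were tested, none was called, none had an unadjusted p under 0.05, and 2 were lower. They were Gramd1b (log2 fold change 0.48, SE 0.35), 1700110K17Rik (0.56, SE 0.46), Gm48114 (−0.35, SE 0.70), Gm5055 (0.20, SE 0.45) and Gm48565 (−0.79, SE 0.88), the last of which was 10.9 kb away. Kmt2a lies 3.99 Mb from Hspa8, and of 33 tested genes between the genes 22 were lower, 3 had an unadjusted p under 0.05, in 2 every knockout was below every control, and none was called (edgeR). Over all tested genes these shares were 49.1%, 6.88% and 1.93%, with 0.186% called. The 3 snoRNA genes within Hspa8, Snord14c, Snord14d and Snord14e, had 0 counts in every library, where polyadenylated RNA was read. Snord14e shares 2.1% of the exon bases of Hspa8.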

How the data were processed

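Reads had been aligned by the authors to mm10 with GSNAP, and those mapping to a single place were assigned to Ensembl genes by featureCounts 1.6.3 (bcl2fastq 2.19.1 is also in the submitters' processing notes). The deposited values are raw counts per gene and library. The 92 spike-in rows were left out. PCR copies were counted as reads, so floors cover counting error only.

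Symbols were matched for 53620 of 53801 genes and 177 of 177 list entries. Genes passing filterByExpr (minimum count 10, minimum total 15) were tested in edgeR 4.0.16 (R 4.3.3) with TMM factors and robust quasi-likelihood fits of 4 knockouts against 4 controls. Standard errors are the log2 fold change over the square root of F, and intervals are 1.96 of them. P-values measure the spread between samples. The functions were tested on simulated data. Near-identical copies were found with BLAST 2.17.0 and aligned with Biopython 1.88 on GENCODE M21.

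The members and gene lists were chosen with earlier results of these data known. Named are all members, the 3 most abundant tested genes of each chaperone list and any called, the 5 genes most alike to Hspa8 and its tested neighbours. The copies were named after their values were seen. Some genes under this rule were tested and counted but are not reported here. Alternatives, also with DESeq2 1.42.0 and limma 3.58.1, are given in the closing section.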

Additional observations from a re-analysis of the deposited data

Results flagged for a closer look

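In 9 of 60 groups of 4 libraries, 1 library's distance from its nearest neighbour, as a share of the range, was above Dixon's critical value. For independent normal values about 1 in 20 would be. These groups share libraries and genes, as do Hspa1a, Hspa1b and their sum, so no excess is read from their number. Knockout 3 was that library in 5 of them. It had 23.5 CPM of Hspa1a (the others 0.173 to 2.07), 21.3 CPM of Hspa1b (1.67 to 4.47) and 44.8 CPM of both together (1.84 to 6.33). Its immediate early genes summed to 988.8 CPM (649.6 to 706.2) and its Paneth markers to 709600 CPM (250000 to 311000). Of the others, control 2 was low in Hsp90aa1 at 46.7 CPM (55.7 to 57.6), control 1 was high in Hsp90ab1 at 317.9 CPM (261.8 to 269.9), knockout 2 was high in the chaperonin and prefoldin sum at 667.7 CPM (573.7 to 587.8), and control 4 was low in the sum of other Hsf1 targets at 404.9 CPM, where the others lay so close together (406.8 to 407.1) that a small step sufficed.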

How the results depend on the processing

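Hspa8, chosen by its call, kept its negative sign under every alternative run. Its log2 fold change was −1.52 with a Y-linked covariate and −0.61 with counts summed with the near-identical copies (chosen after seeing the data), both no longer called, and −1.81 to −1.42 with 1 library left out, where the call held only without knockout 3. No other member was called under any alternative. The number of all genes called, 25, was 290 with no filter, 13 with at least 10 counts in every library, 138 with DESeq2's Wald test, 101 with limma-voom and quality weights, 10 with the Y-linked covariate, 38 at a 10% false discovery rate, and 10 to 152 with 1 library left out, the highest without knockout 3. Lower members numbered 4 with limma-voom and 2 to 5 with 1 library left out, against 2. With no filter 3 genes of the chaperone and stress lists were called (Atf3, Cryab and Nr4a1). Directions turned for Hspa1a with limma-voom (−0.99) and without knockout 3 (−1.13; range −1.13 to 2.00), for Hspa1b with limma-voom (−0.45), without control 2 (−0.01) and without knockout 3 (−0.82; range −0.82 to 0.81), and for Hsp90aa1 without knockout 3 (−0.02; range −0.02 to 0.14). The cause was not tested. A median over the members lay between −0.02 and 0.18 with 1 library left out. With library set as a term, which pairs no libraries, the log2 fold change was 1.15 (SE 0.76) for Hspa1a and 0.64 (SE 0.50) for Hspa1b. In that fit neither of these was called, Hspa8 stayed called at −1.59, and 24 genes were called in all. No paired analysis was possible because the labels give no replicate numbers and only control 4 and knockout 4 share an animal number, which leaves fewer than 2 pairs, and the labels name no litters. Hspb1, with at most 10 counts in a library, was below what the depth can compare.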
